A study of Homo sapiens with 14 samples.

Results

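The genes of cholesterol and fatty acid synthesis were followed after the splicing factor U2AF1 had been depleted and replaced in A549 cells, which derive from a human lung carcinoma. The set holds 29 genes taken by symbol from the isoform tables, of 57756 genes in all, with 327 of the 195553 isoforms listed. They were 16 enzymes of sterol synthesis, 6 genes of SREBP regulation and sterol transport, and 7 genes of fatty acid synthesis. U2AF1 is the small subunit of the factor that recognises the 3′ end of introns, and S34F is a recurrent cancer mutation in it. RNA was sequenced in 14 libraries, 2 for each of 7 groups. In 4 groups, cells were infected with virus carrying a U2AF1 construct after knockdown of the endogenous gene: isoform v3 with S34F, v3 wild type, v1 with S34F, and v1 wild type. The 3 other groups were a U2AF1 knockdown with empty vector, a negative control with empty vector and control siRNA, and untreated A549 cells. The labels do not say whether the 2 replicates of a group are separate cultures. The p-values therefore reflect the spread among these libraries, which may be technical.

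Levels are in FPKM, fragments scaled to transcript length and sequencing depth, summed over the isoforms of a gene. Where 2 values are given for a group, they are replicate 1 and replicate 2. U2AF1 itself was at 16.2 to 28.9 FPKM in the knockdown, against 117 to 119 FPKM with the control siRNA, and at 2114 to 3852 FPKM over the 8 libraries with a construct. FPKM cannot tell the mutant allele from the wild type, or construct from endogenous RNA. The relative depth of the libraries ran between 0.798 in v1 S34F replicate 2 and 1.2 in knockdown replicate 2, and 13734 to 14705 genes a library reached 1 FPKM. Replicates correlated across genes at 0.965 to 0.982 on the log2 scale. The first principal component held 30.7% of the variance. The S34F libraries of replicate 2 had the highest scores on it, 48.4 in v1 and 38.7 in v3, and results that rest on them are given with and without them. The epithelial keratins KRT8 and KRT18 were at 1083 FPKM or more in every library, whereas of 5 alveolar type 2 markers, the surfactant genes SFTPC, SFTPB and SFTPA1 and the factor NKX2-1 were below 1 FPKM throughout. The fifth, the lipid transporter ABCA3, was at 6.83 to 11.4 FPKM. Of 5 leukocyte and endothelial markers, PTPRC, CD3E, CDH5 and VWF were at or near 0 and CD68 made up nearly all of the summed level. That sum was 39.5 to 60.3 FPKM over the 4 S34F libraries, against 24.2 to 39.5 FPKM over the 4 wild type libraries, and 23.2 to 25.0 FPKM in the knockdown, against 14.5 to 30.1 FPKM with the control siRNA. Its part in the results was not tested.

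Cells make cholesterol from acetyl-CoA through mevalonate, isoprenoid diphosphates, squalene and lanosterol, and make fatty acids by carboxylating acetyl-CoA and extending and desaturating the chain. Transcription of nearly all these enzymes is driven by SREBP proteins, encoded by SREBF1 and SREBF2. When membrane sterol is low, SCAP escorts the SREBP precursors from the endoplasmic reticulum to the Golgi, where they are cleaved, and INSIG1 and INSIG2 hold SCAP back when sterol is high. INSIG1 is itself an SREBP target. In lung, the alveolar type 2 cell uses the same enzymes to make surfactant lipid.

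All 29 genes were expressed in every library, and all passed the minimum mean of 1 FPKM used for testing. Mean levels over the 14 libraries ran between 10.2 FPKM for STARD4, a cytosolic sterol carrier, and 197.9 FPKM for ACLY, which makes cytosolic acetyl-CoA from citrate, with a median of 42.6 FPKM. The most abundant after ACLY were FADS2 (165.5 FPKM), a fatty acid desaturase, FDPS (134.2 FPKM), the farnesyl diphosphate synthase, and SCD (120.3 FPKM), the stearoyl-CoA desaturase. Among the sterol enzymes the lowest means were those of TM7SF2 (11.5 FPKM), a sterol reductase, MVK (13.5 FPKM), the mevalonate kinase, and LSS (14.3 FPKM), the lanosterol synthase. SREBF1 averaged 63.3 FPKM and SREBF2 24.7 FPKM. The ratio of the highest to the lowest library ran between 1.36 for FDPS and 3.33 for TM7SF2, with a median of 1.90. Changes of this order, not the presence or absence of a transcript, are what the comparisons describe.

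**Figure D1:**
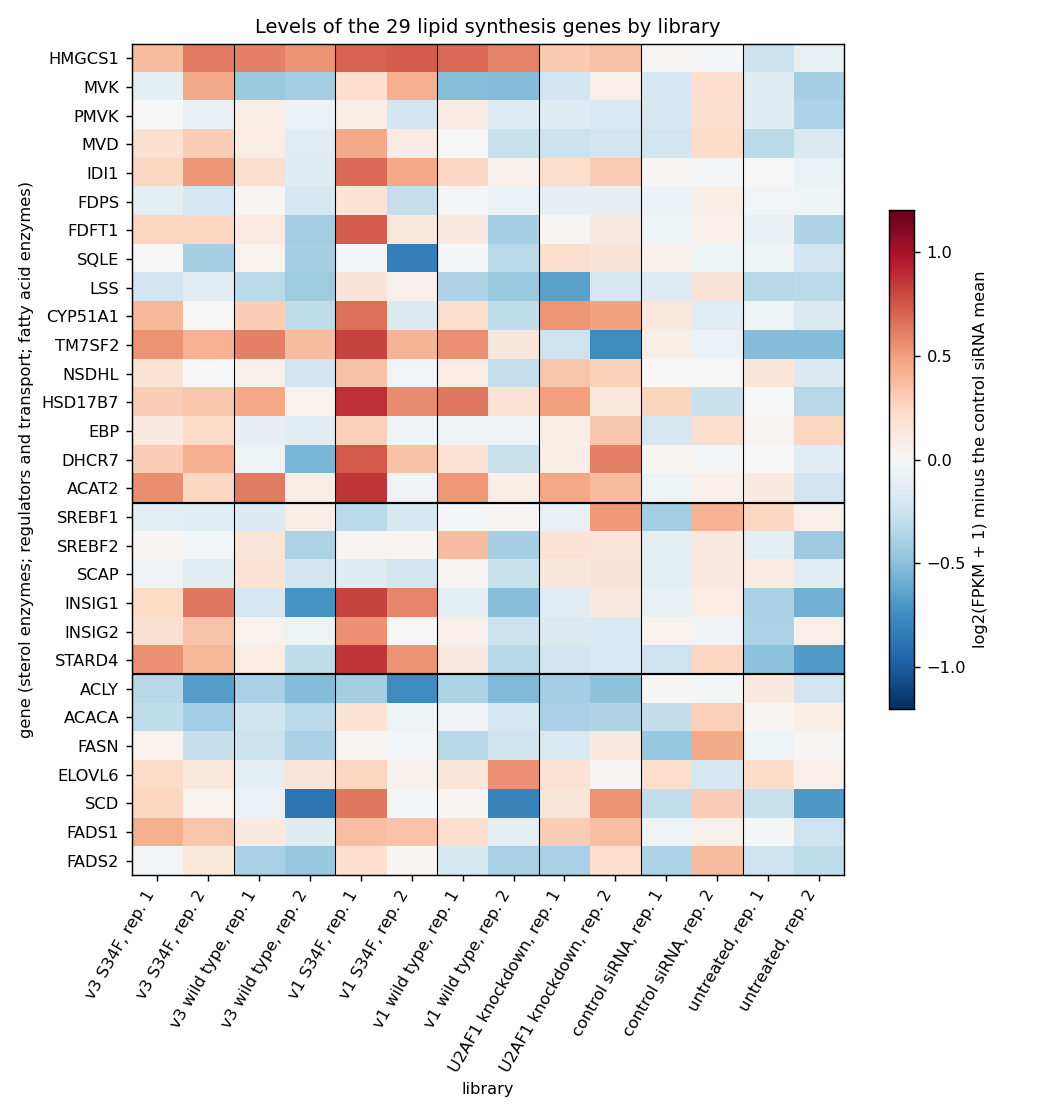
Log2(FPKM + 1) of each of the 29 genes (rows) in each of the 14 libraries (columns), as the difference from the mean of the 2 control siRNA libraries. Horizontal lines separate sterol synthesis enzymes, SREBP regulators with the sterol carrier, and fatty acid synthesis genes. INSIG1 and STARD4 are redder with S34F than with wild type, HMGCS1 is redder in all 8 libraries with a construct than in the control siRNA and untreated libraries, and ACLY is bluer in all libraries with knockdown, with or without a construct.

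Of the 29 genes, 5 passed the test in at least 1 comparison: INSIG1, MVK and STARD4 with S34F against wild type, HMGCS1 with wild type constructs against the control siRNA, and TM7SF2 with wild type constructs against the knockdown. Of all genes tested, 5.29% passed in at least 1 comparison. Tests were made with limma on log2(FPKM + 1) across 14233 genes, with Benjamini-Hochberg adjustment over all of them and an adjusted p under 0.05 as the threshold. Same-numbered replicates deviated together across groups, so a second fit with the replicate number as a block is given where it changes a call. With or without the block, 11 of the 29 genes passed in at least 1 comparison, against 22.6% of all genes.

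The comparison of S34F with wild type U2AF1, averaged over v1 and v3, asks what the mutation changes at similar U2AF1 levels. INSIG1, MVK and STARD4 were higher with S34F, and no gene of the set was called lower. That is 3 of 29 called higher, against 0.583% of all genes, and 0 of 29 called lower, against 1.27%. Calls in either direction made up 1.85% of all genes. In all 11 of 29 had an unadjusted p under 0.05, against 15.9% of all genes, each with a higher level with S34F. Both the count of 11 and that share moved with the library left out, and both fell without v1 wild type replicate 2. In all 22 of the 29 lay higher and 7 lower, with a median log2 difference of 0.23, against 0.02 over all genes tested. The count was 21 with upper quartile scaling and 22 with quantile normalization. With 1 library left out at a time 20 to 26 genes lay higher, and the median was smallest at 0.12 without v1 S34F replicate 1 or without v1 wild type replicate 2 and at 0.14 without v3 wild type replicate 2. Within replicate 1 the median was 0.24 and within replicate 2 also 0.24, and 20 genes lay higher within both.

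INSIG1 (ENSG00000186480, chr7:155089486-155101945, GRCh37), the sterol-responsive anchor of SCAP, was at 38.0 and 32.4 FPKM with v1 S34F and 25.3 and 33.5 FPKM with v3 S34F, against 19.7 and 14.6 FPKM with v1 wild type and 18.4 and 12.5 FPKM with v3 wild type. All 4 mutant libraries lay above all 4 wild type libraries. The mean with S34F was 1.98 times that with wild type, a log2 difference of 0.95 (SE 0.15, adjusted p = 0.0120). The difference was 0.68 within replicate 1 and 1.23 within replicate 2. The call was lost without v1 wild type replicate 2 (adjusted p = 0.0624), v3 wild type replicate 2 (0.0552) or v3 S34F replicate 2 (0.0631), and with both S34F libraries of replicate 2 left out (log2 0.91, adjusted p = 0.117), an alternative chosen after seeing the data.

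MVK (ENSG00000110921, chr12:110011060-110035067, GRCh37), which phosphorylates mevalonate, was at 16.6 and 19.7 FPKM with v1 S34F and 13.1 and 20.01 FPKM with v3 S34F, against 9.77 and 9.66 FPKM with v1 wild type and 10.2 and 10.5 FPKM with v3 wild type. The 4 wild type libraries lay within 1 FPKM of each other and below every mutant library. The ratio of means was 1.73, a log2 difference of 0.72 (SE 0.15, adjusted p = 0.0384). The locus overlaps MMAB, and as the strand setting of the counting is not given, reads of the 2 genes may be shared. The call was lost without v1 wild type replicate 1 (adjusted p = 0.126) or 2 (0.131), v3 wild type replicate 1 (0.138) or 2 (0.117), v1 S34F replicate 2 (0.146) or v3 S34F replicate 2 (0.151). With both S34F libraries of replicate 2 left out the log2 difference was 0.51 (adjusted p = 0.339).

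STARD4 (ENSG00000164211, chr5:110831731-110848288, GRCh37) was at 18.2 and 14.4 FPKM with v1 S34F and 14.4 and 12.9 FPKM with v3 S34F, against 10.4 and 7.39 FPKM with v1 wild type and 10.2 and 7.58 FPKM with v3 wild type. The groups did not overlap, and the ratio of means was 1.68 (log2 0.70, SE 0.15, adjusted p = 0.0496). This value sat at the threshold: leaving out any of the 8 libraries in turn ended the call, with adjusted p between 0.0783 and 0.180. With both S34F libraries of replicate 2 left out the log2 difference was 0.81 (adjusted p = 0.222), and with quantile normalization the adjusted p was 0.0706. With the replicate block the adjusted p was 0.0038 for INSIG1, 0.0074 for MVK and 0.0144 for STARD4.

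The promoters of these 3 genes are shown because they moved together, and because SREBP binds sterol regulatory elements beside sites for general factors. The sequences are the 250 bases before the RefSeq start (GRCh38.p14), 5′ to 3′ on the strand of the gene, at chr7:155297628-155297877 for INSIG1 (plus strand), chr12:109573544-109573793 for MVK (plus strand) and chr5:111512536-111512785 for STARD4 (minus strand). Capitals mark CCAAT on either strand, written CCAAT or ATTGG, and the palindrome TCACGTGA, an E-box form.
INSIG1: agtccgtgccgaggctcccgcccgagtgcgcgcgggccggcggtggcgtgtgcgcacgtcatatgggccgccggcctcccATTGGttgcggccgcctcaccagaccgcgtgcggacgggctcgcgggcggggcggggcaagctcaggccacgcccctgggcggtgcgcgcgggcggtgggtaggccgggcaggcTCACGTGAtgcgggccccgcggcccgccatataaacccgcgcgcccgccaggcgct
MVK: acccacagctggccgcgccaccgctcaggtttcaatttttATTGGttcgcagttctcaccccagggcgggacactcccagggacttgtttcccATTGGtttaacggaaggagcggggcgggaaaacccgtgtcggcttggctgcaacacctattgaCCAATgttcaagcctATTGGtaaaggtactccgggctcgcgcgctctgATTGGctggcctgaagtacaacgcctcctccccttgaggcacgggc
STARD4: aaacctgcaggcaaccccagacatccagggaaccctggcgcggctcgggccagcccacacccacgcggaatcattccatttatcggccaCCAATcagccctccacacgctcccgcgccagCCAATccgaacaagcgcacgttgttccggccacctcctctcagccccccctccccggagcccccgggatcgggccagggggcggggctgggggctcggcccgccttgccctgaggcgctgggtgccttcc
The CCAAT box appeared 1 time in the INSIG1 window, 5 times in that of MVK and 2 times in that of STARD4. TCACGTGA lay at bases 49 to 56 before the start of INSIG1 and in none of the other windows on hand for the set. The sterol regulatory element was searched only as the exact letters TCACNCCAC, which matched only the SREBF2 window. Forms of the element that differ from these letters were not searched. RefSeq windows were on hand for 25 of the 29 genes, 34 windows in all. CCAAT was found in 17 of the 25 genes, or 20 of the 34 windows, against 32.0% of 35116 human promoter windows of the same length. The GC box GGGCGG was found in 24 of the 25 genes, or 30 of the 34 windows, against 42.6% of all windows. In the INSIG1 window it occurs 5 times, a pair of which share 1 base. TCACNCCAC was in 0.883% of all windows and TCACGTGA in 0.854%. Both strands were searched, and a match is a description of the letters, not of binding.

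**Figure D2:**
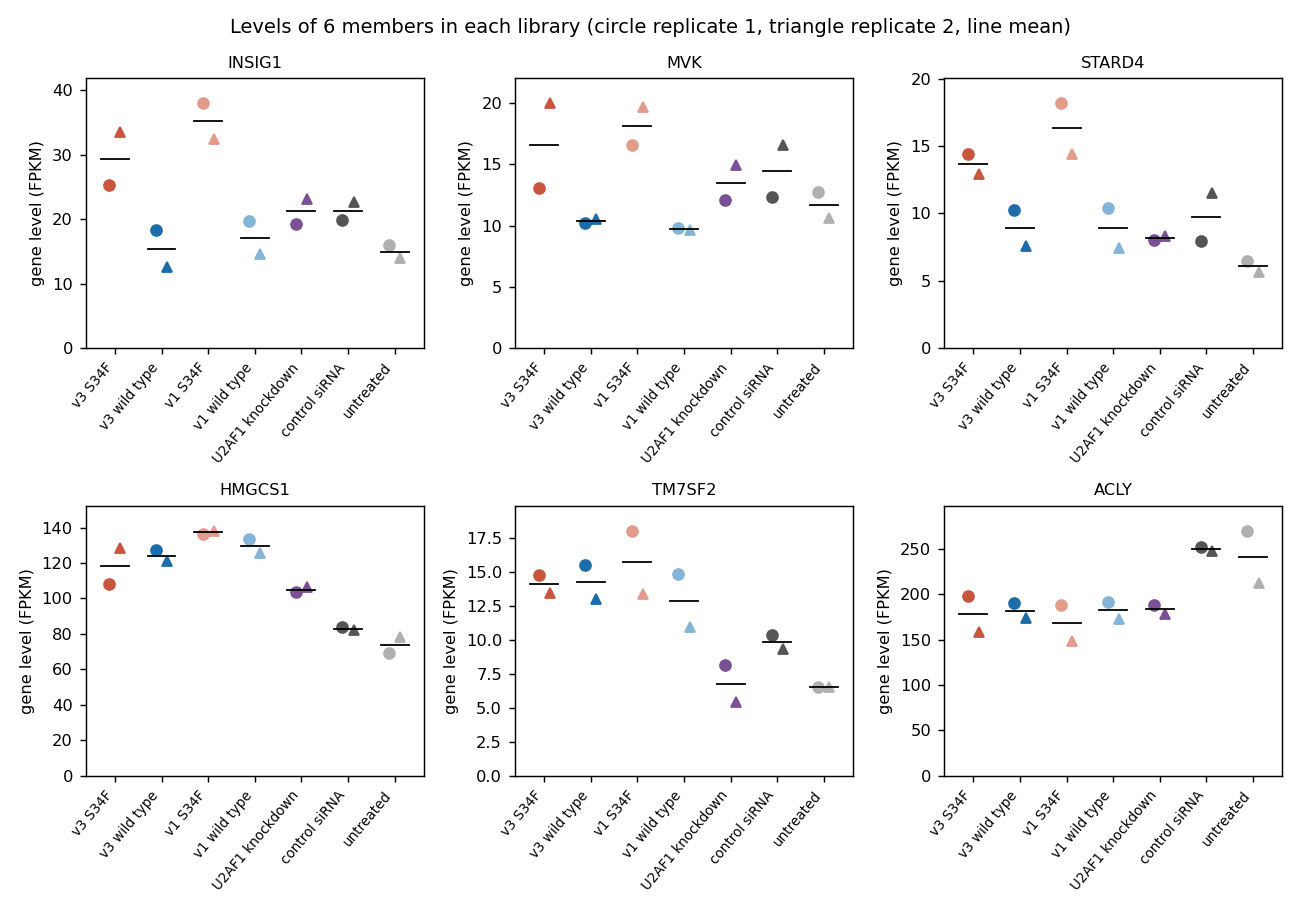
FPKM of 6 genes in each library by group, with circles for replicate 1, triangles for replicate 2 and a line at the mean. INSIG1, MVK and STARD4 are higher in all 4 S34F libraries than in all 4 wild type libraries, HMGCS1 lies between 107.9 and 138.3 FPKM with the constructs, against 82.1 and 83.95 with the control siRNA, TM7SF2 is lowest in the knockdown and untreated libraries, and ACLY lies below 200 FPKM in all libraries with knockdown.

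Among the other sterol enzymes, none passed without the block. DHCR7, the reductase of the last step to cholesterol, was at 67.7 and 51.7 FPKM with v1 S34F and 49.7 and 55.0 FPKM with v3 S34F, against 45.7 and 33.4 FPKM with v1 wild type and 38.5 and 27.3 FPKM with v3 wild type. All mutant libraries lay above all wild type libraries (log2 0.63, SE 0.16, adjusted p = 0.0731), and the gene passed with the block (adjusted p = 0.0265). IDI1, the isopentenyl diphosphate isomerase, averaged 52.1 FPKM with S34F and 39.4 FPKM with wild type (log2 0.39, adjusted p = 0.0929, with the block 0.0339). FDFT1, the squalene synthase, averaged 127.4 and 90.7 FPKM in the same order (log2 0.49, adjusted p = 0.165, with the block 0.0396). LSS averaged 16.4 FPKM with S34F and 12.5 FPKM with wild type (adjusted p = 0.158), and MVD, the mevalonate diphosphate decarboxylase, 28.2 FPKM with S34F and 22.1 FPKM with wild type (adjusted p = 0.231). For CYP51A1, EBP, NSDHL, HSD17B7, TM7SF2 and ACAT2 the log2 differences lay between 0.08 and 0.25, each with an unadjusted p above 0.05. HMGCS1, the enzyme that makes HMG-CoA, differed by 0.003 on the log2 scale (SE 0.08), FDPS by -0.04, PMVK, the phosphomevalonate kinase, by -0.05, and SQLE, the squalene epoxidase, by -0.13. The enzymes of the path thus did not share a single size of difference.

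Of the regulators, INSIG2 averaged 13.3 FPKM with S34F and 10.4 FPKM with wild type (log2 0.32, adjusted p = 0.315). The transcription factors and their escort lay near 0: SREBF2 at 0.08 (SE 0.17), SCAP at -0.06 (SE 0.12) and SREBF1 at -0.17 (SE 0.17). Among the fatty acid genes, FADS1, a desaturase of polyunsaturated chains, was at 119.7 and 117.4 FPKM with v1 S34F and 124.8 and 117.0 FPKM with v3 S34F, against 106.7 and 85.7 FPKM with v1 wild type and 100.3 and 83.6 FPKM with v3 wild type. Its log2 difference was 0.35 (SE 0.09, adjusted p = 0.0956, with the block 0.0254). The gene also passed in limma with quantile normalization (log2 0.36, adjusted p = 0.0462). FADS1 and FADS2 overlap in the tables, so their reads may be shared. SCD averaged 144.4 FPKM with S34F and 93.3 FPKM with wild type, with a wide spread (log2 0.66, SE 0.24, adjusted p = 0.214). FADS2 averaged 189.3 and 139.1 FPKM in that order (adjusted p = 0.202). FASN, the fatty acid synthase, ACACA, the acetyl-CoA carboxylase, ELOVL6, an elongase, and ACLY lay between -0.08 and 0.24.

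Counted by role, 13 of 16 sterol enzymes, 4 of 6 genes of regulation and transport and 5 of 7 fatty acid genes lay higher with S34F, with median log2 differences of 0.22, 0.20 and 0.24. In 9 of the 29 genes all 4 S34F libraries lay above all 4 wild type libraries, against 6.89% of all genes, and in 0 all lay below, against 6.65%. The 9 were DHCR7, FADS1, FADS2, FDFT1, INSIG1, LSS, MVD, MVK and STARD4. The block added DHCR7, FADS1, FDFT1 and IDI1, for 7 of 29 called higher, against 3.27% of all genes called higher and 7.98% called in either direction. With both S34F libraries of replicate 2 left out, 26 of 29 lay higher, with a median of 0.35, and 0 were called by limma, with 13 at an unadjusted p under 0.05. Over all genes the same fit gave a median of -0.003, called 15 higher and 41 lower, and put 9.07% at an unadjusted p under 0.05. In bulk RNA, fewer cells of a kind and less RNA per cell cannot be told apart.

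**Figure D3:**
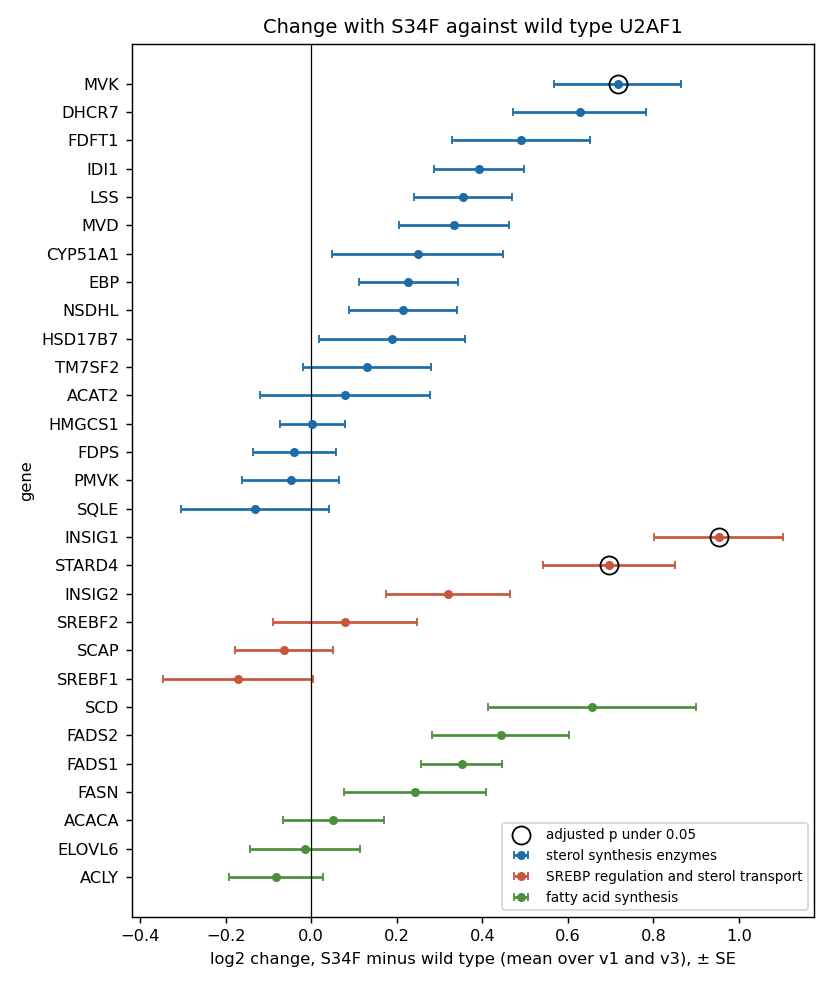
Log2 difference between S34F and wild type, averaged over v1 and v3, for each of the 29 genes, with bars of ± 1 SE. Genes are coloured by role and ordered by size within a role, and rings mark an adjusted p under 0.05. INSIG1 (0.95), MVK (0.72) and STARD4 (0.70) carry rings, and SREBF1 (-0.17) is the lowest.

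Taken separately, neither isoform gave a call among the 29 genes in limma, against 0.176% of all genes called in v1 and 0.0211% in v3, though 9 genes in v1 and 6 in v3 had an unadjusted p under 0.05, against 9.93% and 6.44% of all genes. Both counts, and both shares of all genes, shifted with the library left out. The median log2 difference of the 29 was 0.28 in v1, against 0.02 over all genes, and 0.09 to 0.47 with 1 library left out at a time. In v3 it was 0.19, against 0.02 over all genes, and 0.10 to 0.32 with 1 library left out. INSIG1 differed by 1.01 in v1 (SE 0.21, adjusted p = 0.107) and by 0.90 in v3 (SE 0.21, adjusted p = 0.262). MVK differed by 0.83 in v1 and 0.60 in v3, and STARD4 by 0.81 in v1 and 0.58 in v3. With the block, INSIG1 (adjusted p = 0.0334) and MVK (0.0374) passed in v1, 2 of 29 against 2.17% of all genes. The difference of the S34F effect between v3 and v1 was tested directly: 0 of 29 genes passed in limma, 0% of all genes did, and 0 of the 29 had an unadjusted p under 0.05, against 0.71% of all genes. For INSIG1 it was -0.11 (SE 0.30).

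The knockdown was compared with the control siRNA to see what loss of U2AF1 does. No gene of the set passed in limma, against 2.85% of all genes, and 6 of 29 had an unadjusted p under 0.05, against 18.9% of all genes. Without either knockdown library that count fell, and so did the share of all genes. Of the 29, 16 lay higher and 13 lower, with a median log2 difference of 0.09, against -0.01 over all genes. That median was -0.01 without control siRNA replicate 1 and 0.01 without knockdown replicate 2, and 13 and 15 genes lay higher. Both knockdown libraries lay above both control libraries for 10 of 29 genes, against 24.7% of all genes, and below them for 6, against 26.7%. HMGCS1 (ENSG00000112972, chr5:43289497-43313614, GRCh37) was at 103.6 and 106.5 FPKM in the knockdown, against 83.95 and 82.1 FPKM with the control siRNA (log2 0.34, SE 0.11, adjusted p = 0.120, with the block 0.0495). ACLY (ENSG00000131473, chr17:40023161-40086795, GRCh37) was at 188.2 and 178.4 FPKM in the knockdown, against 252.1 and 247.5 FPKM with the control siRNA (log2 -0.45, SE 0.15, adjusted p = 0.150). In both genes the groups did not overlap, with a spread between replicates far under the difference. ACLY passed with the block (adjusted p = 0.0199) and with quantile normalization (log2 -0.54, adjusted p = 0.0392).

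LSS was at 10.4 and 14.4 FPKM in the knockdown, against 15.0 and 18.7 FPKM with the control siRNA (log2 -0.42, adjusted p = 0.191). Its difference was -0.21 without knockdown replicate 1, -0.27 without control siRNA replicate 2 and -0.64 without knockdown replicate 2. FADS1 was at 115.0 and 119.3 FPKM, against 88.9 and 96.7 FPKM (log2 0.33, adjusted p = 0.209). TM7SF2 was at 8.14 and 5.42 FPKM in the knockdown, against 10.4 and 9.35 FPKM with the control siRNA (log2 -0.50, adjusted p = 0.231), and passed with the block (0.0428). With the block, 3 of 29 genes passed, 1 higher and 2 lower, against 11.8% of all genes. ACACA averaged 35.8 FPKM in the knockdown and 47.7 FPKM with the control siRNA (log2 -0.38, adjusted p = 0.254), and passed only without control siRNA replicate 1 (log2 -0.66, adjusted p = 0.0470). INSIG1, MVK and STARD4, higher with S34F, differed between knockdown and control siRNA by less than the spread of their libraries: INSIG1 averaged 21.2 FPKM in the knockdown and 21.3 FPKM in the control.

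Wild type constructs, averaged over v1 and v3, were compared with the knockdown to see what differs once U2AF1 is supplied again. TM7SF2 (ENSG00000149809, chr11:64879317-64883856, GRCh37) was higher, and no other gene of the set passed, against 1.43% of all genes. It was at 14.8 and 10.9 FPKM with v1 wild type and 15.5 and 13.0 FPKM with v3 wild type, against 8.14 and 5.42 FPKM in the knockdown. All 4 wild type libraries lay above both knockdown libraries, with a ratio of means of 2.00 (log2 0.92, SE 0.18, adjusted p = 0.0428, with the block 0.0031). Without knockdown replicate 2, the lowest library, the log2 difference was 0.66 (adjusted p = 0.496), and leaving out any of the 5 other libraries also ended the call, with adjusted p between 0.0759 and 0.111. Quantile normalization gave 0.82 (adjusted p = 0.0824). The gene overlaps VPS51, so reads may be shared. The 4 wild type libraries also lay above both control siRNA libraries. The untreated cells, at 6.55 FPKM in both libraries, lay as low as the knockdown.

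In the same comparison HMGCS1 averaged 126.9 FPKM with wild type constructs and 105.0 FPKM in the knockdown (log2 0.27, SE 0.09, adjusted p = 0.192). FADS1 averaged 94.1 FPKM with wild type and 117.1 FPKM in the knockdown (log2 -0.32, adjusted p = 0.216), and DHCR7 36.3 FPKM with wild type and 52.2 FPKM in the knockdown (log2 -0.51, adjusted p = 0.225). DHCR7 lay at 42.7 and 61.7 FPKM in the knockdown libraries, so that the difference was -0.02 within replicate 1 and -1.0 within replicate 2. It was -0.25 without knockdown replicate 2 and -0.77 without knockdown replicate 1. Of the 29 genes 11 lay higher and 18 lower with wild type, and 6 had an unadjusted p under 0.05, against 15.8% of all genes. That count fell without knockdown replicate 2 or replicate 2 of v1 or v3 wild type. It rose without replicate 1 of v1 or v3 wild type. The share of all genes fell in each of these fits. All wild type libraries lay above both knockdown libraries for 3 genes, against 18.1% of all genes, and below them for 8, against 16.3%. MVK was among the 8. The median of the 29 was 0.02 within replicate 1 and -0.40 within replicate 2. With the block, NSDHL, a dehydrogenase of sterol demethylation, also passed, at 26.9 FPKM with wild type and 35.6 FPKM in the knockdown (log2 -0.40, adjusted p = 0.0400), which made 2 of 29, against 7.52% of all genes.

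Against the control siRNA, cells with the wild type constructs had both the knockdown and U2AF1 far above its endogenous level. The comparison does not separate the 2. In the knockdown with empty vector, HMGCS1 had differed from the control by log2 0.34 and ACLY by -0.45. HMGCS1 was higher, at 133.3 and 125.9 FPKM with v1 wild type and 127.1 and 121.4 FPKM with v3 wild type, against 83.95 and 82.1 FPKM with the control siRNA. The ratio of means was 1.53 (log2 0.61, SE 0.09, adjusted p = 0.0314, with the block 0.0078), with 0.63 within replicate 1 and 0.59 within replicate 2. It was the only gene of the 29 to pass, against 0.436% of all genes, and 5 of 29 had an unadjusted p under 0.05, against 13.6%. The count of 5, like the share of all genes, fell without control siRNA replicate 2 and rose without control siRNA replicate 1. The call of HMGCS1 was lost without any of the 6 libraries in turn (adjusted p 0.0670 to 0.228), while the log2 difference stayed between 0.59 and 0.63. ACLY was at 192 and 173 FPKM with v1 wild type and 189.9 and 174 FPKM with v3 wild type, against 252.1 and 247.5 FPKM with the control siRNA (log2 -0.45, SE 0.13, adjusted p = 0.177, with the block 0.0215). The block thus called 2 of 29, against 3.84% of all genes. Of the 29, 7 lay higher and 22 lower, with a median of -0.08, which was 0.16 within replicate 1 and -0.36 within replicate 2. Without control siRNA replicate 2, 17 lay higher, and without v1 or v3 wild type replicate 2, 13 and 11 did. All wild type libraries lay above both control libraries for 3 genes, against 13.9% of all genes, and below them for 4, against 13.1%. The 3 were ACAT2, HMGCS1 and TM7SF2, and the 4 were ACLY, INSIG1, LSS and MVK. For INSIG1 and MVK, the wild type libraries set against S34F thus lay below the control siRNA too.

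The control siRNA with empty vector was compared with untreated cells as the background of the procedure. No gene of the set passed in limma, nor did any of the 14233 genes (0%), while 3 of the 29 had an unadjusted p under 0.05, against 5.13% of all genes. The genes in that count, and their direction, depended on the library left out. Without control siRNA replicate 2 the genes in it lay lower, not higher. Of the 29, 25 lay higher, with a median of 0.14, which was -0.01 within replicate 1 and 0.28 within replicate 2. It was 0.06 without untreated replicate 2, 0.07 without control siRNA replicate 2 and 0.23 without untreated replicate 1. The control libraries lay above both untreated libraries for 7 genes, against 12.8% of all genes, and below them for 0, against 16.5%. The 3 genes were STARD4, at 7.93 and 11.5 FPKM with the control siRNA against 6.50 and 5.62 FPKM untreated, TM7SF2, at 10.4 and 9.35 against 6.55 and 6.55 FPKM, and INSIG1, at 19.9 and 22.6 against 15.9 and 13.9 FPKM. Their log2 differences of 0.48 to 0.59 had adjusted p of 0.936 to 0.965. Beside these stand the differences of S34F from wild type given above: INSIG1 differed by 0.95 there and 0.48 here, STARD4 by 0.70 there and 0.59 here, and MVK by 0.72 there and 0.28 here.

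Splicing was described by isoform usage, the percent of a gene's FPKM carried by an isoform, for 85 isoforms of 27 of the genes. PMVK and SCD have 1 isoform each and could not enter. In S34F against wild type, 15 of the 85 had an unadjusted p under 0.05, against 11.9% of all isoforms. In that comparison 1 of 85 isoforms passed in limma, against 0.748% of the 41727 isoforms tested. It was ENST00000325110 of HMGCS1, a protein-coding isoform that made up 11.7% and 8.44% of the gene with v1 S34F and 20.7% and 13.9% with v3 S34F, against 39.5% and 34.8% with v1 wild type and 40.4% and 43.6% with v3 wild type. The groups did not overlap. The difference was -25.9 points (SE 3.7, adjusted p = 0.0219), with -23.8 within replicate 1 and -28.0 within replicate 2. In the knockdown the isoform made up 33.7% and 23.5%, against 46.5% and 40.02% with the control siRNA and 42.2% and 28.7% in untreated cells. The call was lost without v1 wild type replicate 1 (adjusted p = 0.0859) or 2 (0.0682), v3 wild type replicate 1 (0.0747) or 2 (0.0917), v1 S34F replicate 2 (0.0886) or v3 S34F replicate 2 (0.0931), with the difference at -24.2 to -27.6 points throughout. With both S34F libraries of replicate 2 left out it was -23.4 points (adjusted p = 0.215).

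ENST00000433297, the main alternative of HMGCS1, made up 66.4% and 45.0% with v1 S34F and 57.1% and 45.4% with v3 S34F, against 37.5% and 37.0% with v1 wild type and 37.6% and 32.4% with v3 wild type (17.4 points, SE 5.1, adjusted p = 0.188). In the knockdown it made up 50.3% and 53.6%, against 36.4% and 34.8% with the control siRNA. It was lower with wild type constructs than in the knockdown by a difference of -15.8 points that did not pass (adjusted p = 0.394). In GENCODE release 29, ENST00000325110 has an exon 2 of 59 bases that ENST00000433297 lacks, at chr5:43307766-43307824 (GRCh38, minus strand). The exon holds no coding sequence and lies in the 5′ untranslated region. The isoforms, of 3506 and 3466 bases, also differ outside this exon, so the change in usage need not be that of the exon alone. Summed over the isoforms whose structure is known, the exon was included in 19.1 ± 3.3% of HMGCS1 RNA with v1 S34F and 24.6 ± 9.2% with v3 S34F, against 51.4 ± 6.7% with v1 wild type and 52.4 ± 3.7% with v3 wild type (SD, n = 2 each). It was included in 42.2 ± 3.0% in the knockdown, against 58.1 ± 0.04% with the control siRNA and 49.9 ± 12.8% in untreated cells. The level of the whole gene, in contrast, differed by 0.003 on the log2 scale between S34F and wild type. HMGCS1 thus differed from INSIG1, MVK and STARD4 in what was measured: the makeup of its transcripts passed the test with S34F and its level did not.

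**Figure D4:**
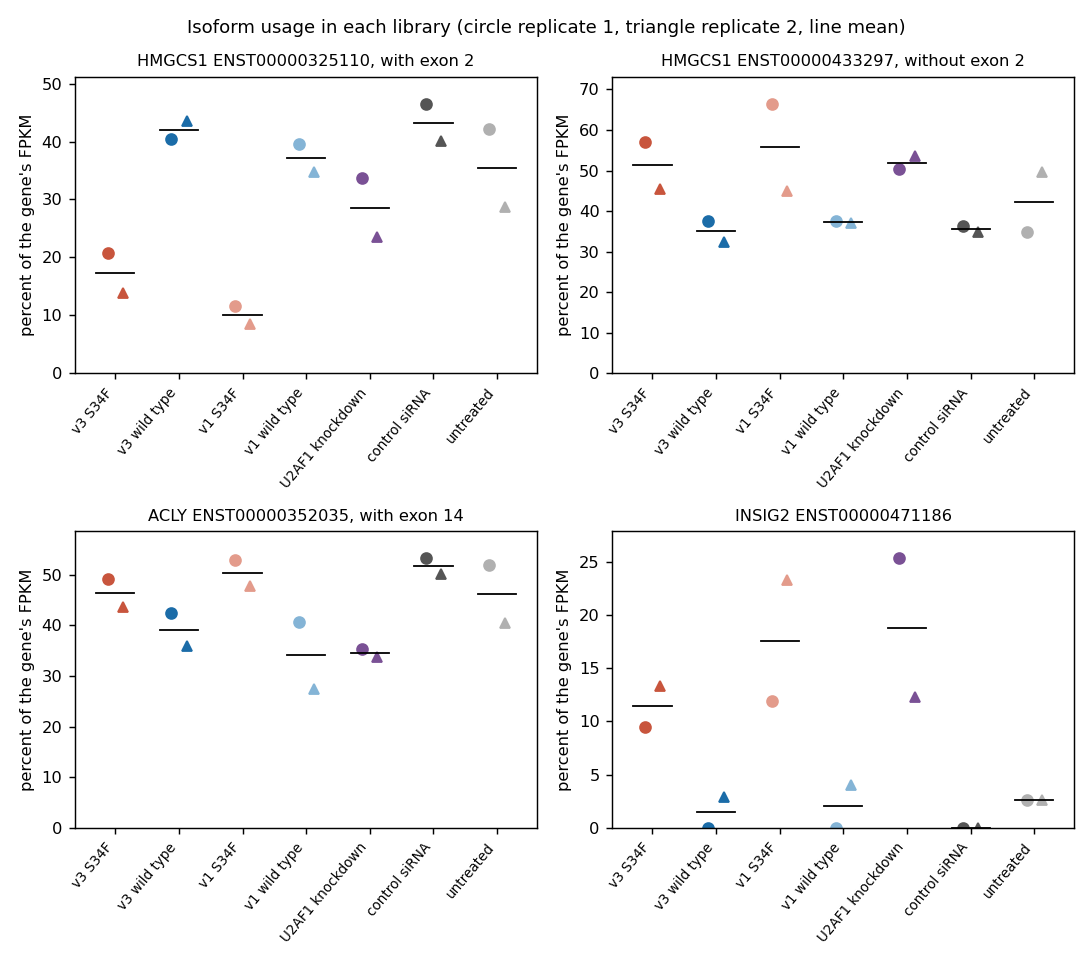
Percent of the gene's FPKM carried by an isoform in each library, by group, with circles for replicate 1, triangles for replicate 2 and a line at the mean. HMGCS1 ENST00000325110 lies at 8.44% to 20.7% with S34F and at 34.8% to 43.6% with wild type, ACLY ENST00000352035 lies at 43.7% to 52.9% with S34F and at 27.4% to 42.4% with wild type, and INSIG2 ENST00000471186 lies at 9.47% or more with S34F and in the knockdown and at or below 4.01% in all other libraries.

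ACLY has a cassette exon whose measured inclusion differed among the groups. No ACLY isoform passed in any comparison, and inclusion of the exon itself was not tested. ENST00000352035, which holds the exon, made up 35.3% and 33.7% of ACLY in the knockdown, against 53.2% and 50.3% with the control siRNA (-17.3 points, SE 5.3, adjusted p = 0.289). It made up 52.9% and 47.8% with v1 S34F and 49.2% and 43.7% with v3 S34F, against 40.8% and 27.4% with v1 wild type and 42.4% and 35.9% with v3 wild type (11.8 points, SE 3.7, adjusted p = 0.229). The exon is exon 14 of that isoform, 30 coding bases at chr17:41896620-41896649 (GRCh38, minus strand), or 10 residues in frame. It is printed with 30 bases of the exon on either side, from the GENCODE release 29 transcripts, with the exon in capitals, beside the junction of ENST00000353196, which lacks it.
ACLY ENST00000352035: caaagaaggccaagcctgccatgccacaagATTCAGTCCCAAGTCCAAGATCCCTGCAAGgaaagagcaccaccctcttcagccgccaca
ACLY ENST00000353196: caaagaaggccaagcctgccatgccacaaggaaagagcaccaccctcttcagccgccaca
Summed over the isoforms of known structure, the exon was included in 69.5 ± 5.3% of ACLY RNA with v1 S34F and 70.3 ± 1.7% with v3 S34F, against 55.5 ± 0.11% with v1 wild type and 60.4 ± 1.8% with v3 wild type (SD, n = 2 each). It was included in 51.6 ± 0.78% in the knockdown, against 62.9 ± 6.6% with the control siRNA and 62.8 ± 8.2% in untreated cells. The 4 S34F libraries lay above the 4 wild type libraries, whereas for the HMGCS1 exon the S34F libraries lay below the wild type libraries. In both genes the knockdown libraries lay below the control siRNA libraries.

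INSIG2, which like INSIG1 retains SCAP, had a minor isoform that separated the groups. ENST00000471186, annotated as a processed transcript, lacks coding exons 2 and 5 of the main isoform ENST00000245787. It made up 11.9% and 23.3% of INSIG2 with v1 S34F and 9.47% and 13.3% with v3 S34F, against about 0% and 4.01% with v1 wild type and about 0% and 2.89% with v3 wild type (12.8 points, SE 3.4, adjusted p = 0.150). In the knockdown it made up 25.3% and 12.3%, against about 0% in both control siRNA libraries (18.8 points, SE 4.9, adjusted p = 0.212, and 12.3 points without knockdown replicate 1). With wild type constructs it differed from the knockdown by -17.1 points (SE 4.2, adjusted p = 0.155, and -10.5 points without knockdown replicate 1). Untreated cells were at 2.58% and 2.63%. S34F and knockdown libraries thus lay apart from all others, at adjusted p-values above the threshold, in a gene of about 11 FPKM where an isoform's share rests on few reads.

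Other isoforms with the widest differences did not pass. In SREBF2, the protein-coding ENST00000361204 made up 82.4% and 48.0% with v1 S34F and 78.2% and 63.8% with v3 S34F, against 80.7% and 84.2% with v1 wild type and 86.3% and 87.4% with v3 wild type (-16.5 points, SE 6.5, adjusted p = 0.345). The low values were those of the S34F libraries of replicate 2: with both left out the difference was -4.3 points, and without v1 S34F replicate 1 the isoform was called (-25.1 points, adjusted p = 0.0277). ENST00000467076 of FDPS made up 19.8% and 16.0% with v1 S34F and 26.3% and 16.5% with v3 S34F, against 32.0% and 32.2% with v1 wild type and 30.8% and 35.1% with v3 wild type (-12.9 points, adjusted p = 0.0653), and passed when genes under a mean of 5 FPKM were left out (0.0388) or without v3 S34F replicate 1 (0.0438). In EBP, a sterol isomerase, ENST00000414061 made up 10.4% and 11.04% with v1 wild type and 6.99% and 8.598% with v3 wild type, against 26.0% and 17.1% in the knockdown (-12.3 points, SE 4.1, adjusted p = 0.299). Without knockdown replicate 1 this was -7.80 points. In TM7SF2, the retained-intron isoform ENST00000532328 made up 15.6% and 3.69% in the knockdown, against 27.6% and 26.1% with the control siRNA (-17.2 points, SE 7.2, adjusted p = 0.455), but 1.36% and 10.8% in untreated cells. Without knockdown replicate 2 the difference was -11.3 points. In the 4 other usage comparisons 0 of 85 isoforms passed in limma, with 12 at an unadjusted p under 0.05 for knockdown against control siRNA, 9 for wild type against knockdown, 5 for wild type against control siRNA and 6 for control siRNA against untreated cells. The shares of all isoforms called there were 0.117%, 0.362%, 0.0024% and 0.00479%, and those with an unadjusted p under 0.05 were 10.3%, 10.7%, 6.55% and 5.36%.

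The rest of lipid synthesis and SREBP control was represented by 42 listed genes, of which 36 were tested. None was called with S34F against wild type, where 20 lay higher and 16 lower with a median of 0.04, and 7 had an unadjusted p under 0.05, beside the 1.85% and 15.9% of all genes. With the block 5 were called, against 7.98% of all genes: GGPS1, LPIN1 and OSBP higher and ACAT1 and ERLIN1 lower. In the knockdown against the control siRNA 3 fell and none rose, against 2.85% of all genes called, and with the block 7 were called, 1 higher and 6 lower, against 11.8%. SOAT1, which esterifies cholesterol for storage, was at 15.0 and 15.8 FPKM in the knockdown, against 32.7 and 28.8 FPKM with the control siRNA (log2 -0.95, SE 0.12, adjusted p = 0.0081). ERLIN1, which with ERLIN2 forms a complex that binds cholesterol in the endoplasmic reticulum, was at 23.2 and 19.5 FPKM, against 51.4 and 46.3 FPKM (log2 -1.16, SE 0.15, adjusted p = 0.0081). ACSL4, which activates long polyunsaturated fatty acids, was at 8.46 and 8.57 FPKM, against 19.1 and 26.2 FPKM (log2 -1.30, SE 0.28, adjusted p = 0.0379). In all 3 genes both knockdown libraries lay below both control libraries. ERLIN1 was also lower with wild type constructs, at 28.1 and 27.4 FPKM with v1 and 27.7 and 26.3 FPKM with v3, against the same control libraries (log2 -0.81, SE 0.13, adjusted p = 0.0353), the only listed gene to pass there, against 0.436% of all genes. With the block 4 passed there, 1 higher and 3 lower, against 3.84%. The knockdown and wild type comparisons share these control libraries. Leaving out knockdown replicate 1 or 2 ended the call of SOAT1 (adjusted p = 0.0523 and 0.0681), and leaving out control siRNA replicate 2 or knockdown replicate 2 that of ERLIN1 in the knockdown (0.0528 and 0.0936). Leaving out any library ended that of ACSL4 (0.0601 to 0.229) and that of ERLIN1 with wild type constructs (0.0917 to 0.226).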

How the data were processed

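The sample titles gave the group and replicate number of each of the 14 RNA-seq libraries. Trimmomatic 0.30, TopHat2 2.0.12 and GRCh37 are named as tools and build, per the submitters' processing notes. No source used here names the quantifier, its annotation or its strand setting. The deposited tables hold, per the file headers, an FPKM per isoform, with a status for each estimate, which was OK for every isoform of the 29 genes. The coverage column deposited beside it, divided by FPKM, gave relative depth. Depth in reads is not known. Start positions in the tables count from 0, and 1 was added.

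Gene FPKM was the sum over isoforms. Genes with a mean of at least 1 FPKM over all libraries (14244, of which 14233 were left after the removal of genes with a failed estimate) were tested on log2(FPKM + 1) in limma 3.58.1 (R 4.3.3). The prior variance followed an intensity trend, and 1 model with 7 group means left 7 residual degrees of freedom. Fold changes on this scale understate changes of low genes. Usage was tested in percent without a trend, for 41727 isoforms with a mean usage of 5 to 95 percent. Benjamini-Hochberg adjustment ran within each comparison. The model was tested on simulated data. Alternatives were a pseudocount of 0.1, no filter, upper quartile and quantile scaling, the replicate block, only the groups compared, and each library left out. For usage they were an arcsine transform, a gene mean of at least 5 FPKM, and a range of 1 to 99 percent. As a check of pairing, deviations of replicate 1 from the group mean correlated between all 21 pairs of groups, at 0.160 to 0.571.

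The members and lists were chosen with earlier results of these data known. Values in every library are given for members called in any comparison and for the 4 with the smallest p in 3 comparisons (knockdown, wild type against knockdown, S34F), and for isoforms called or among the 3 widest differences there. FDPS ENST00000467076, ACACA and NSDHL, and the isoforms of S34F against wild type in ACLY and INSIG2, were added after their values were seen. Exon structures came from GENCODE release 29 (GRCh38), where identifier and length matched for 281 of 327 isoforms. Promoters came from RefSeq (GRCh38.p14). Proteins and a genome sequence were not used here. HSD17B7 has a near-identical pseudogene copy, and 10 of the 29 loci overlap another gene.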

Additional observations from a re-analysis of the deposited data

How the results depend on the processing

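The replicate block moved the number of the 29 genes called to 3 for knockdown against control siRNA (0 without it), 2 for wild type against knockdown (1), 2 for wild type against control siRNA (1), 7 for S34F against wild type (3) and 2 for S34F in v1 (0), and changed no other count of members called. Over all genes it called 1136 with S34F (264 without it), 1681 in the knockdown (405), 1070 for wild type against knockdown (203) and 547 for wild type against control siRNA (62). With limma restricted to the groups compared, which leaves fewer libraries for the spread, 0 were called in wild type against knockdown, wild type against control siRNA and S34F against wild type, and 0 isoforms in S34F against wild type. Over all genes this fit called 9 higher and 30 lower with S34F, 15 higher and 5 lower for wild type against knockdown, 1 higher for wild type against control siRNA and 0 in the knockdown. Without a filter on low values 1 gene was called with S34F and 0 in wild type against knockdown. Of all 31106 genes in that fit, 86 were called higher and 142 lower with S34F, and 87 and 54 in wild type against knockdown. Quantile normalization gave 1 for the knockdown and 0 for wild type against knockdown. Of all 14233 genes it called 102 higher and 240 lower in the knockdown, and 91 and 45 in wild type against knockdown. The cause was not tested. Leaving out 1 library at a time gave 0 to 1 calls for the knockdown, 0 to 0 for either comparison of wild type, and 0 to 2 for S34F, for genes and for isoforms. A minimum of 5 FPKM gave 2 of the 85 isoforms called with S34F. Of all 32483 isoforms tested in that fit, 309 were called higher and 239 lower. Leaving out both S34F libraries of replicate 2 gave 0 genes and 0 isoforms, and this alternative and an intensity trend for usage were chosen after seeing the data. Of 313 recomputed values of 26 named results, none changed sign, 238 kept their side of the threshold, 70 lost a call and 5 gained one. Many of the 26 were not called in the main fit and had no call to lose. The 70 losses thus fell on the called results alone, and the 238 include results that stayed uncalled. With 2 libraries a group, depth unknown in reads and isoform shares of low genes the least precise, a difference that did not pass is not shown to be absent.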
